A study of Homo sapiens with 12 samples.

Results

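Antisense RNA genes are transcribed from the strand opposite a protein-coding gene and are named after it, with the suffix -AS1, -AS2 or -AS3. The genes described here are the rows of the gene count table whose Ensembl ID has such a symbol, and they were chosen by their level: a mean over the 12 libraries of at least 1 CPM, where CPM is a gene's count scaled to a common total of gene counts in each library. They numbered 332, among 1755 genes with such a symbol and 57820 genes in the table. Of the 332, 318 ended in -AS1, 14 in -AS2 and 0 in -AS3. A further 359 of the 1755 had no count in any library. The rule used the level over mutant and wild-type libraries together, so levels are given as a description. A gene low in wild-type cells could enter through its mutant libraries, and 15 of the 332 had a wild-type mean under 1 CPM, while 16 had a mutant mean under 1 CPM. Just inside the threshold were TSPEAR-AS2 and FOXP4-AS1, each at 1.01 CPM, and DNMT3L-AS1 at 1.01 CPM. Just outside it were TM4SF19-AS1 at 0.999 CPM, GCC2-AS1 at 0.996 CPM and TENM3-AS1 at 0.992 CPM.

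The libraries came from JVM3, HG3 and MEC1, human B cell lines labelled as chronic lymphocytic leukaemia, each with mutant U1 (g.3A>C) and with wild-type U1. Each of the 6 groups had 2 technical replicates of total RNA, made into stranded libraries after removal of ribosomal RNA, with 29880079 to 39716818 gene counts per library. The labels name no other treatment, and the sources used here give neither how the mutant U1 was introduced nor whether a line is 1 clone. Each mutant group was compared with wild-type cells of the same line, so n is 3 lines across lines, and p-values within a line measure technical spread only. The mutation itself cannot be read from gene counts and was not checked. The B cell markers MS4A1 (773 to 1354 CPM) and CD79A (147 to 197 CPM) were high in every library. Among markers linked to this leukaemia, FCER2 ran from 189 to 715 CPM, while CD5 (0.0282 to 42.1 CPM) and ROR1 (0.201 to 18.5 CPM) were nearly absent in some libraries. Among T cell genes CD3G had no count in any library, while CD3E reached 0.606 CPM and CD4 9.87 CPM, and the NK cell gene GNLY reached 14.0 CPM in its highest library. In bulk RNA, fewer cells with a transcript and less of it per cell cannot be told apart.

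U1 is the small nuclear RNA that recognises the donor splice site at the upstream end of an intron by base pairing, and it also keeps polymerase II transcripts from being ended early at cryptic polyadenylation signals. Many antisense RNAs start at or near the promoter of their sense gene and run away from it, and many are spliced poorly, kept in the nucleus and degraded by the nuclear exosome. Some are stable and have known roles. OIP5-AS1, known as cyrano, brings about the decay of a microRNA, and IFNG-AS1 promotes interferon gamma expression in lymphocytes.

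In the GENCODE 29 annotation, 312 of the 332 genes overlapped the gene they are named after on the opposite strand, 13 lay head to head with it within 1 kb, 4 lay opposite but farther apart and 2 lay on the same strand. TRD-AS1, named after the T cell receptor delta locus, was not compared. By gene type, 258 were annotated as antisense, 34 as processed transcripts, 29 as long intergenic RNAs and 3 as protein coding. The few others were of further noncoding or pseudogene types, so the set is defined by name and not by type. In 111 the start lay within 1 kb of the partner's start on the opposite strand. Exonic bases over exons of the partner were annotated in 253, and 21 had at least 50 percent of their exonic bases there. Reads over such bases can be assigned to the right gene only by strand, and the sources used here do not state how the counting treated strand. Ambiguous reads were 0.897% to 1.06% of entries per library. In the junction table, all 801 annotated junctions read for these genes alone, in 170 of the 274 genes that could be placed there, were on the gene's own strand. They were picked by an exact match to an intron of the gene, so this does not show how the gene counting treated strand.

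The genes together held 0.214% to 0.284% of gene counts per library. Means ran from 1.01 CPM to 214 CPM with a median of 3.31 CPM. They were at 10 CPM or more in 61 genes and under 2 CPM in 99, and the 10 highest held 29.5% of the summed CPM. OIP5-AS1 led with 214 CPM, before FGD5-AS1 (111 CPM), TTN-AS1 (71.6 CPM), NAALADL2-AS2 (56.0 CPM) and THUMPD3-AS1 (54.4 CPM). THAP9-AS1, PSMA3-AS1, CCDC18-AS1, AFAP1-AS1 and EPB41L4A-AS1 followed, at 51.2 to 37.5 CPM. Per kilobase of annotated exon the order differed, with NAALADL2-AS2 first at 54.0 CPM per kb, UST-AS2 next at 44.8 CPM per kb and DTNB-AS1 next at 37.9 CPM per kb. FGD5-AS1 stood at 21.7 CPM per kb and OIP5-AS1 at 16.9 CPM per kb, against a median of 1.6 CPM per kb over the 332 genes. Exon lengths were those of GENCODE 29, while the annotation release behind the counts was not given, so the 2 may differ. UST-AS2, at 5.83 CPM, has 130 annotated exonic bases, the fewest of all. At least 1 CPM in every library was seen in 194 genes, and 18 had at least 1 library with no count.

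Levels differed between lines. In wild-type cells the highest line was MEC1 for 190 genes, HG3 for 81 and JVM3 for 61, and the median ratio of the highest to the lowest line was 2.41. The ratio was at least 10, or the lowest line had no count, in 46 genes (13.9%, against 14.1% of all tested genes at 1 CPM, whose median ratio was 1.80), and it was under 2 in 118. NR2F1-AS1 averaged 24.7 CPM in mutant and 25.5 CPM in wild-type JVM3 cells, and at most 0.211 CPM in the other lines. PAX8-AS1 averaged 33.4 CPM in mutant and 29.5 CPM in wild-type HG3 cells, and at most 0.0816 CPM elsewhere. AFAP1-AS1 averaged 60.0 CPM in mutant and 66.1 CPM in wild-type JVM3 cells and 50.5 CPM in mutant and 52.8 CPM in wild-type HG3 cells, while MEC1 cells had 0.0427 CPM with mutant and 0.234 CPM with wild-type U1. IFNG-AS1 averaged 18.7 CPM in mutant and 27.2 CPM in wild-type MEC1 cells, and at most 1.48 CPM in the other lines. SVIL-AS1 was likewise nearly limited to MEC1, with 11.6 CPM in mutant and 10.6 CPM in wild-type cells. These lines had 1 culture per status as far as the labels say, so differences between lines have no replicate of the line and were not tested.

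**Figure D1:**
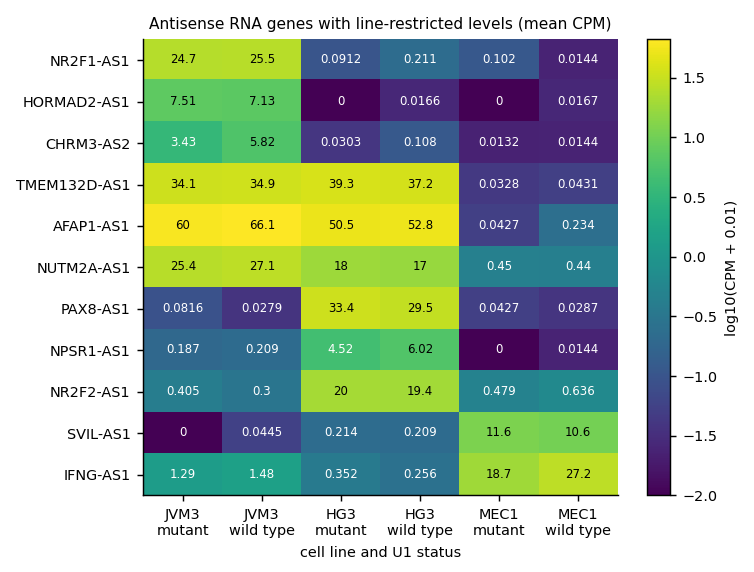
Mean CPM of the 2 technical replicates in each line and U1 status for 11 antisense RNA genes with line-restricted levels, chosen after their values were seen; colour gives log10(CPM + 0.01) and the number in each cell is the mean CPM. NR2F1-AS1 was high in JVM3 only, PAX8-AS1 in HG3 only and SVIL-AS1 in MEC1 only, with mutant and wild-type cells of a line close to each other.

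Across the 3 lines, 18 of the 332 genes were higher and 11 lower in mutant cells by edgeR's quasi-likelihood test at an adjusted p under 0.05, with all 332 among the 21270 genes tested. The shares were 5.42% higher and 3.31% lower, against 1.83% higher and 1.86% lower among all genes tested and 1.89% higher and 2.68% lower among the 14612 tested genes at a mean of 1 CPM. In both directions together, 8.74% were called, against 3.69% of all genes tested and 4.57% of those at 1 CPM. Because entry through mutant libraries favours genes that rose, the same count was made for genes with a wild-type mean of at least 1 CPM. There 13 of 334 were higher (3.89%) and 11 lower (3.29%), against 1.57% higher and 2.7% lower of all 14538 tested genes with such a wild-type mean. The 5 called genes with a wild-type mean under 1 CPM were all higher. All 29 called genes moved the same way in the 3 lines. Of these, 10 rose and 1 fell by 2-fold or more. The 10 include DDX59-AS1, TRIM7-AS1, TTC36-AS1 and DNMT3L-AS1, which met the 1 CPM rule only through their mutant libraries. The split by 2-fold was not counted again by wild-type mean, nor over all genes tested. The median log2 fold change of the 332 was -0.08, against -0.01 over all genes tested and -0.02 over tested genes at 1 CPM, with 133 genes above and 199 below 0 and 259 within 0.5 of 0. Counted without regard to adjustment, 101 genes had p under 0.05 by edgeR. The share of all genes tested at such a p was not counted, so this number has no comparison. With 2 lines in place of 3, the calls higher and lower were 5 and 2 without JVM3, 8 and 3 without HG3, and 12 and 2 without MEC1.

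**Figure D2:**
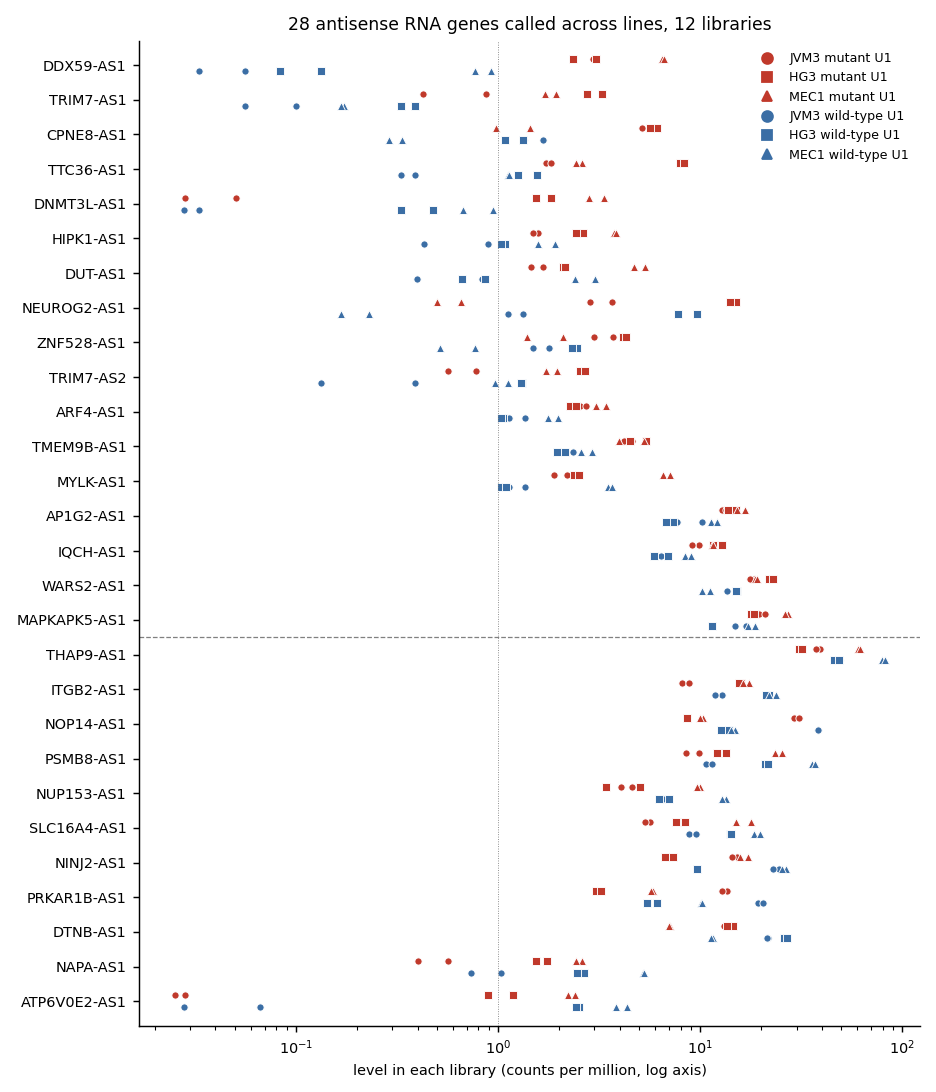
CPM on a log axis in each of the 12 libraries (red, mutant U1; blue, wild-type U1; circles JVM3, squares HG3, triangles MEC1) for 28 of the antisense RNA genes called across lines, ordered by fold change with 17 that rose above the dashed line and the 11 that fell below it; the dotted line marks 1 CPM. DDX59-AS1 and TRIM7-AS1 had every wild-type library under 1 CPM, while most genes that fell were above 5 CPM in most libraries.

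Of the 18 genes that rose, 11 start within 1 kb of the start of their sense gene on the opposite strand. Among them were DDX59-AS1, CPNE8-AS1, HIPK1-AS1, DUT-AS1, NEUROG2-AS1, ZNF528-AS1, ARF4-AS1, TMEM9B-AS1, WARS2-AS1 and MAPKAPK5-AS1. Over all 111 genes with such a start 11 rose and 3 fell, with a median log2 fold change of -0.16, and over the 221 others 7 rose and 8 fell, with a median of -0.04. Whether the starts differ in response was not tested.

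DDX59-AS1, TRIM7-AS1, TRIM7-AS2, TTC36-AS1 and DNMT3L-AS1 had wild-type means of 0.203 to 0.966 CPM, so they met the 1 CPM rule only through their mutant libraries. Having been let in by the group where they are high, they had to differ, and their size and rank describe the selection as well. DDX59-AS1 (ENSG00000260088.1) lies opposite the gene of an RNA helicase. It stood at 2.96 and 2.34 CPM in JVM3, 2.34 and 3.06 CPM in HG3 and 6.5 and 6.59 CPM in MEC1 mutant libraries. The wild-type libraries had 0.0333 and 0.0558 CPM in JVM3, 0.0837 and 0.133 CPM in HG3 and 0.920 and 0.770 CPM in MEC1. All 6 mutant libraries lay above all 6 wild-type libraries, and the gap was narrowest in MEC1. The log2 fold change was 3.86 (SE 0.69 over 3 lines, adjusted p = 0.0132 by edgeR). In JVM3 it rested on 198 counts in mutant and 3 in wild-type libraries, a ratio of 57.9 with an exact 95% binomial interval of 19.5 to 283 that covers counting error only. The ratio was 25.5 in HG3 and 7.69 in MEC1. Leaving out a line kept the call, with adjusted p by edgeR of 0.0258 without JVM3, 0.0192 without HG3 and 0.000943 without MEC1.

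CPNE8-AS1 (ENSG00000257718.1), opposite the gene of a calcium-dependent membrane-binding copine, stood at 5.75 and 5.14 CPM in JVM3, 6.10 and 5.67 CPM in HG3 and 0.974 and 1.44 CPM in MEC1 mutant libraries. The wild-type libraries had 1.66 and 1.34 CPM in JVM3, 1.09 and 1.33 CPM in HG3 and 0.287 and 0.335 CPM in MEC1. Mutant libraries were higher within every line, while mutant MEC1 overlapped wild-type JVM3 and HG3. The log2 fold change was 2.04 (SE 0.15 over 3 lines, adjusted p = 0.00412 by edgeR), and the call was kept without each line.

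A further 8 genes of this kind rose by less than DDX59-AS1 and CPNE8-AS1. HIPK1-AS1, opposite the gene of a homeodomain-interacting kinase, had a lowest, median and highest level of 1.49, 2.54 and 3.84 CPM in mutant libraries, against 0.432, 1.06 and 1.91 CPM in wild-type libraries (log2 fold change 1.17, SE 0.05, adjusted p = 0.0177 by edgeR). DUT-AS1, opposite the gene of dUTPase, had 1.46, 2.12 and 5.31 CPM in mutant and 0.399, 0.851 and 3.01 CPM in wild-type libraries (log2 fold change 1.16, SE 0.18, adjusted p = 0.0247 by edgeR). NEUROG2-AS1, opposite the gene of a neurogenic transcription factor, had 0.5, 3.26 and 15.0 CPM in mutant and 0.167, 1.22 and 9.67 CPM in wild-type libraries (log2 fold change 1.10, SE 0.21, adjusted p = 0.0269 by edgeR). These groups overlapped across lines and were apart within each line. ZNF528-AS1, head to head with a zinc finger gene, had 1.395, 3.35 and 4.28 CPM in mutant and 0.517, 1.64 and 2.46 CPM in wild-type libraries (log2 fold change 1.04, SE 0.15, adjusted p = 0.0283 by edgeR). ARF4-AS1, opposite the gene of a small GTPase of vesicle traffic, had 2.28, 2.63 and 3.42 CPM in mutant and 1.03, 1.25 and 1.98 CPM in wild-type libraries (log2 fold change 0.99, SE 0.13, adjusted p = 0.0327 by edgeR). ARF4-AS1, TMEM9B-AS1 and WARS2-AS1 had all mutant libraries above all wild-type libraries. MAPKAPK5-AS1 had 17.9, 20.2 and 27.2 CPM in mutant and 11.4, 15.9 and 18.6 CPM in wild-type libraries, and WARS2-AS1 had 17.6, 18.9 and 23.1 CPM in mutant and 10.2, 14.3 and 15.2 CPM in wild-type libraries. TMEM9B-AS1 had a log2 fold change of 0.96, WARS2-AS1 of 0.56 and MAPKAPK5-AS1 of 0.52 (SE 0.17, 0.12 and 0.09, adjusted p = 0.0277, 0.0348 and 0.0332 by edgeR). HIPK1-AS1, ARF4-AS1, WARS2-AS1 and MAPKAPK5-AS1 lost the call without each of the 3 lines, with adjusted p by edgeR of 0.0501 to 0.111. NEUROG2-AS1 lost it without JVM3 (0.11), ZNF528-AS1 without JVM3 (0.0933) and MEC1 (0.0741), and DUT-AS1 and TMEM9B-AS1 without JVM3 (0.0805 and 0.0933) and HG3 (0.0669 and 0.0821).

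A further 7 risers start farther from the start of the sense gene, and 4 of them (TRIM7-AS1, TRIM7-AS2, TTC36-AS1 and DNMT3L-AS1) met the 1 CPM rule only through their mutant libraries. TRIM7-AS1 (ENSG00000250900.2) lies opposite the gene of an E3 ubiquitin ligase. TRIM7-AS1 stood at 0.874 and 0.428 CPM in JVM3, 3.27 and 2.76 CPM in HG3 and 1.71 and 1.94 CPM in MEC1 mutant libraries. The wild-type libraries had 0.0998 and 0.0558 CPM in JVM3, 0.391 and 0.332 CPM in HG3 and 0.172 and 0.167 CPM in MEC1. All mutant libraries lay above all wild-type ones, by a narrow gap between mutant JVM3 and wild-type HG3. The log2 fold change was 3.15 (SE 0.12 over 3 lines, adjusted p = 0.00225 by edgeR), kept without each line, on 48, 197 and 124 counts in mutant and 5, 24 and 11 counts in wild-type JVM3, HG3 and MEC1. TRIM7-AS2, a separate annotated gene on the same strand of that locus, had a lowest, median and highest level of 0.564, 1.85 and 2.70 CPM in mutant and 0.133, 1.05 and 1.31 CPM in wild-type libraries. Its log2 fold change was 0.99 (SE 0.15, adjusted p = 0.0468 by edgeR), lost without each line (0.0917 to 0.148). That call was also lost by DESeq2 (adjusted p = 0.0515) and by edgeR with library totals alone (0.0529) and without JVM3 mutant replicate 2, either JVM3 wild-type replicate or MEC1 wild-type replicate 2 (0.0513 to 0.0586).

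TTC36-AS1 had 1.72, 2.52 and 8.28 CPM as lowest, median and highest in mutant libraries, against 0.333, 1.13 and 1.56 CPM in wild-type libraries, with no overlap. Its log2 fold change was 1.98 (SE 0.44, adjusted p = 0.0167 by edgeR), and it lost the call without JVM3 (adjusted p = 0.0759 by edgeR). DNMT3L-AS1, opposite the gene of a cofactor of DNA methyltransferases, had a fitted log2 fold change of 1.86 (between-line SE 0.56, adjusted p = 0.0151 by edgeR). It rested on HG3, with 1.54 and 1.82 CPM in mutant and 0.474 and 0.332 CPM in wild-type libraries, and on MEC1, with 3.34 and 2.82 CPM in mutant and 0.949 and 0.669 CPM in wild-type libraries. JVM3 held 3 counts in mutant and 2 in wild-type libraries, and the call was lost without HG3 (0.0506) and without MEC1 (0.0854). MYLK-AS1, AP1G2-AS1 and IQCH-AS1 had log2 fold changes of 0.92, 0.66 and 0.63 (SE 0.14, 0.19 and 0.17, adjusted p = 0.0342, 0.0415 and 0.0473 by edgeR). AP1G2-AS1 and IQCH-AS1 had all mutant libraries above all wild-type ones and lost the call without JVM3 (0.117 and 0.138) and HG3 (0.124 and 0.158). With library totals alone, IQCH-AS1 also lost it (0.0529). MYLK-AS1 lost it without each line (0.0701 to 0.104).

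Of the 11 genes that fell, 8 start farther than 1 kb from the start of their sense gene, and ATP6V0E2-AS1 was the one that fell by 2-fold or more. DTNB-AS1 (ENSG00000224220.1), opposite the gene of beta-dystrobrevin, stood at 13.9 and 13.2 CPM in JVM3, 14.6 and 13.6 CPM in HG3 and 7.11 and 6.99 CPM in MEC1 mutant libraries. The wild-type libraries had 21.8 and 21.3 CPM in JVM3, 26.1 and 26.9 CPM in HG3 and 11.6 and 11.4 CPM in MEC1. Mutant libraries were lower within every line, with overlap only between lines. The log2 fold change was -0.78 (SE 0.08 over 3 lines, adjusted p = 0.00957 by edgeR), and the call was kept without each line (0.0372 without JVM3, 0.031 without HG3, 0.0282 without MEC1).

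PRKAR1B-AS1, opposite the gene of a regulatory subunit of protein kinase A, had 3.05, 5.81 and 13.5 CPM as lowest, median and highest in mutant and 5.47, 10.2 and 20.5 CPM in wild-type libraries (log2 fold change -0.77, SE 0.10, adjusted p = 0.0174 by edgeR). NINJ2-AS1, opposite the gene of an adhesion protein, had 6.70, 14.8 and 17.3 CPM in mutant and 9.60, 23.7 and 26.5 CPM in wild-type libraries (log2 fold change -0.62, SE 0.08, adjusted p = 0.0195 by edgeR). THAP9-AS1 was the highest of the 11 and the only one of the 10 most abundant antisense RNA genes called, with 30.7, 38.3 and 61.6 CPM in mutant and 45.9, 48.9 and 82.0 CPM in wild-type libraries (log2 fold change -0.46, SE 0.07, adjusted p = 0.0283 by edgeR). In each, mutant libraries were below wild-type libraries within every line and overlapped them across lines. PRKAR1B-AS1 kept the call without HG3 alone (0.0381, against 0.0601 without JVM3 and 0.0572 without MEC1), as did NINJ2-AS1 (0.0208, against 0.0863 and 0.0832), and THAP9-AS1 lost it without each line (0.0658 to 0.0832).

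Antisense genes at immune loci were among those read. PSMB8-AS1, opposite the gene of an immunoproteasome subunit, had 8.56, 12.8 and 25.5 CPM as lowest, median and highest in mutant and 10.7, 21.4 and 37.2 CPM in wild-type libraries (log2 fold change -0.55, SE 0.15, adjusted p = 0.0416 by edgeR). ITGB2-AS1, opposite the gene of the beta chain of leukocyte integrins, had 8.09, 15.7 and 17.5 CPM in mutant and 11.8, 21.5 and 23.9 CPM in wild-type libraries (log2 fold change -0.49, SE 0.02, adjusted p = 0.0342 by edgeR). CD27-AS1, opposite the gene of a costimulatory receptor of lymphocytes, was called within MEC1 only, at 5.61 and 5.64 CPM in mutant and 4.11 and 3.68 CPM in wild-type libraries (log2 fold change 0.46, adjusted p = 0.000982 by edgeR, technical replicates). PSMB8-AS1 kept the call without JVM3 alone (0.0412, against 0.126 without HG3 and 0.164 without MEC1) and lost it without JVM3 mutant replicate 2 (0.0522) and with library totals alone (0.0539), and ITGB2-AS1 lost it without each line (0.0849 to 0.113).

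The other genes that fell were ATP6V0E2-AS1 (log2 fold change -1.05, SE 0.23), NAPA-AS1 (-0.88, SE 0.14), SLC16A4-AS1 (-0.61, SE 0.16), NUP153-AS1 (-0.57, SE 0.05) and NOP14-AS1 (-0.50, SE 0.09), with adjusted p by edgeR of 0.0373 to 0.0469. Their sense genes encode a proton pump subunit, a membrane fusion adaptor, a monocarboxylate transporter, a nuclear pore protein and a ribosome assembly factor. In JVM3, ATP6V0E2-AS1 held 2 counts with mutant and 3 with wild-type U1, so its fall rested on HG3 and MEC1. SLC16A4-AS1 kept the call without MEC1 alone (0.0444, against 0.148 without JVM3 and 0.14 without HG3), and the other 4 lost it without each line (0.0673 to 0.227). Single libraries also ended calls by edgeR: MEC1 mutant replicate 1 for SLC16A4-AS1 (0.0552), MEC1 wild-type replicate 1 for ATP6V0E2-AS1 (0.055), and JVM3 mutant replicate 2 and JVM3 wild-type replicate 2 for NAPA-AS1 (0.059 and 0.0538). For NUP153-AS1 they were JVM3 mutant replicate 2, HG3 mutant replicate 1 and MEC1 wild-type replicate 1 (0.0516 to 0.0644). With library totals alone, edgeR called none of SLC16A4-AS1 (0.0664), NUP153-AS1 (0.0624), NAPA-AS1 (0.0576) and ATP6V0E2-AS1 (0.0579), and with upper-quartile factors neither NUP153-AS1 (0.0514) nor NAPA-AS1 (0.0555). DESeq2 did not call ATP6V0E2-AS1 (adjusted p = 0.0583).

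**Figure D3:**
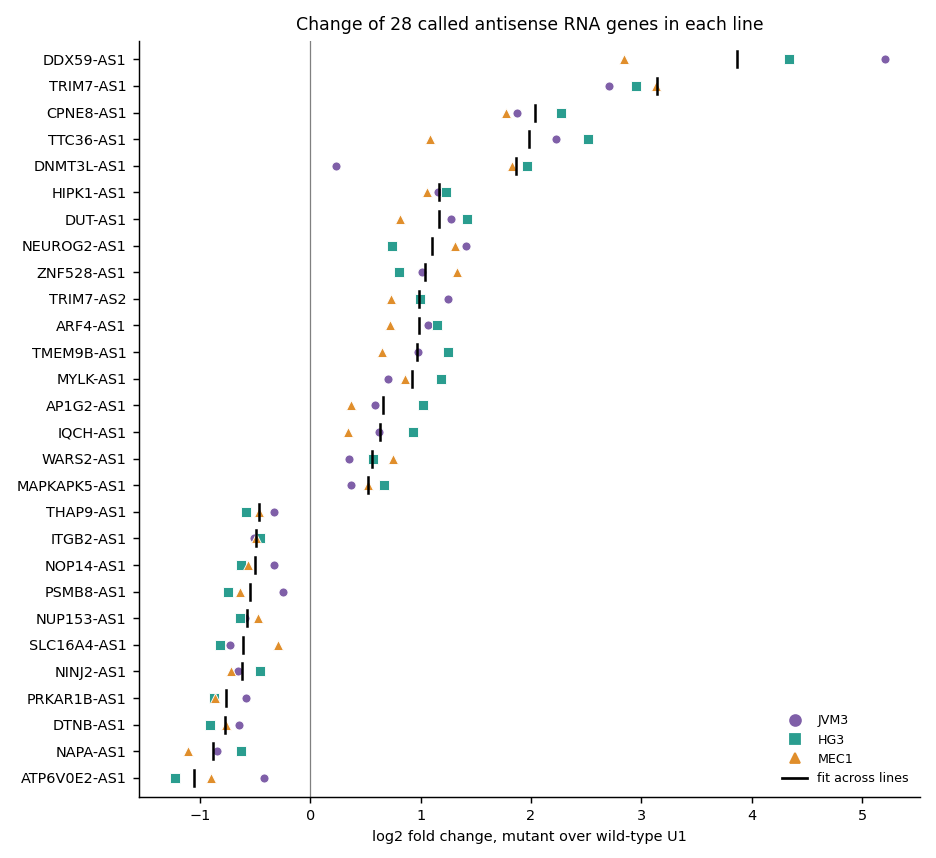
Log2 fold change (mutant over wild-type U1) of 28 called antisense RNA genes in each line (circles JVM3, squares HG3, triangles MEC1, from log2 CPM with a prior count of 2) and in the fit across lines (black bars). All 28 drawn lay on one side of 0 in the 3 lines; DDX59-AS1 and TRIM7-AS1 stood farthest from 0.

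Some genes missed the threshold although their lines agreed in sign. OIP5-AS1 (ENSG00000247556.2) stood at 186 and 192 CPM in JVM3, 154 and 159 CPM in HG3 and 228 and 241 CPM in MEC1 mutant libraries, against 229 and 231, 193 and 202, and 267 and 285 CPM in wild-type libraries of the same lines. It was lower in mutant libraries within every line, with a log2 fold change of -0.30 (between-line SE 0.02, adjusted p = 0.0647 by edgeR and 0.00697 by DESeq2). ZEB1-AS1, opposite the gene of a repressor of epithelial genes, changed by -0.40 on the log2 scale (between-line SE 0.04, adjusted p = 0.0803 by edgeR and 0.037 by DESeq2). Of other well-described antisense RNAs, FGD5-AS1 had 84.3, 111 and 136 CPM as lowest, median and highest in mutant and 92.8, 109 and 136 CPM in wild-type libraries, and GABPB1-AS1 had 19.0, 28.7 and 50.6 CPM in mutant and 18.5, 27.9 and 51.3 CPM in wild-type libraries. Neither passed (adjusted p = 0.776 and 0.833 by edgeR), nor did PCED1B-AS1 (0.598), MCM3AP-AS1 (0.49) and EPB41L4A-AS1 (0.842). All 6 mutant libraries lay above all 6 wild-type libraries in 12 of the 332 genes (3.61%, against 1.3% of all genes tested), 9 of them called. The 12 include DDX59-AS1, TRIM7-AS1 and TTC36-AS1, which met the 1 CPM rule only through their mutant libraries. The share was not counted again by wild-type mean. The 3 not called were STARD7-AS1, MAP3K14-AS1 and CATIP-AS1, with log2 fold changes of 0.21, 0.65 and 0.66 and adjusted p by edgeR of 0.413, 0.0966 and 0.112. All 6 lay below in 1 gene (0.301%, against 0.743% of all genes tested), SLC38A4-AS1, at 3.42 to 4.43 CPM in mutant and 5.05 to 6.99 CPM in wild-type libraries (log2 fold change -0.65, adjusted p = 0.0529 by edgeR). STARD7-AS1, MAP3K14-AS1, CATIP-AS1 and SLC38A4-AS1 were named after their values were seen. Within each line taken alone, mutant replicates were above wild-type replicates in all 3 lines in 45 genes (13.6%, against 9.81% of all genes tested) and below in 55 (16.6%, against 9.87%). DDX59-AS1, TRIM7-AS1 and TTC36-AS1 are among the 45 as well.

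Reads across the genes' own annotated splice junctions, which lie on one strand, gave a further readout of the level. The junction columns were taken as pooled replicates of the same libraries, so this readout is not independent of the gene counts. Of the 29 called genes, 16 had at least 20 such reads. Junction reads scaled to column totals moved the same way as the gene count in all 3 lines in 8 of the 9 that rose and 6 of the 7 that fell. MAPKAPK5-AS1 had 434, 369 and 578 junction reads in mutant JVM3, HG3 and MEC1, against 246, 148 and 184 in wild type. Its gene counts in MEC1 were 1831 in mutant and 1154 in wild-type cells. Its junction use was also called as changed (below), so its junction reads do not give the level alone. ZNF528-AS1 had 66, 68 and 29 in mutant, against 9, 34 and 4 in wild type. The 2 exceptions were DNMT3L-AS1, which had 0 junction reads in JVM3 in both states, and NOP14-AS1, which had 55 in mutant and 50 in wild-type HG3. DTNB-AS1 had 8 in both states in MEC1, so its direction there came from the column totals alone. Genes that were not called were not counted in this way.

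Few sense genes were called across lines. The 332 genes have 330 distinct sense partners, of which 302 were tested and 9 called, 2 higher and 7 lower (2.98%, against 3.69% of all genes tested), with a median log2 fold change of -0.02. Over 304 pairs, the log2 fold changes of antisense and sense gene had a Pearson r of -0.06 and a Spearman rho of -0.01. This is a description across genes of the same libraries. Of the 28 called antisense genes with a tested partner, 25 had a partner that was not called.

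In the 3 pairs with both genes called, antisense and sense gene moved in opposite directions. TRIM7-AS1 and TRIM7-AS2 share the sense gene TRIM7, and both met the 1 CPM rule only through their mutant libraries, which favours a rise. TRIM7 stood at 0.226 and 0.151 CPM in JVM3, 1.20 and 1.06 CPM in HG3 and 2.08 and 1.77 CPM in MEC1 mutant libraries, against 0.266 and 0.335, 2.62 and 2.76, and 3.74 and 3.51 CPM in wild-type libraries of the same lines. It was lower in every line (log2 fold change -1.03, SE 0.18, adjusted p = 0.0406 by edgeR), while TRIM7-AS1 and TRIM7-AS2 rose. PRKAR1B stood at 28.8 and 28.2 CPM in JVM3, 37.8 and 34.7 CPM in HG3 and 60.5 and 58.6 CPM in MEC1 mutant libraries, against 18.1 and 20.1, 23.9 and 22.5, and 48.0 and 43.4 CPM in wild-type libraries. It was higher in every line (log2 fold change 0.52, SE 0.10, adjusted p = 0.0279 by edgeR), while PRKAR1B-AS1 fell. The genes of these pairs overlap, and whether reads of one strand were counted for the other was not tested at the gene level.

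DDX59 and CPNE8, the sense genes of leading risers, were not called. DDX59 averaged 23.2 CPM in mutant and 26.6 CPM in wild-type cells (log2 fold change -0.22, adjusted p = 0.303 by edgeR). CPNE8 averaged 67.2 CPM in mutant and 61.5 CPM in wild-type cells (0.08, adjusted p = 0.676 by edgeR). Called partners of antisense genes that were not called included CCDC18, at -0.55 beside -0.24 for CCDC18-AS1 (adjusted p = 0.0177 for CCDC18 and 0.282 for CCDC18-AS1 by edgeR), and TNFRSF14, a receptor of the tumour necrosis factor family, at -0.36 beside -0.37 for TNFRSF14-AS1 (adjusted p = 0.0413 and 0.0793 by edgeR).

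**Figure D4:**
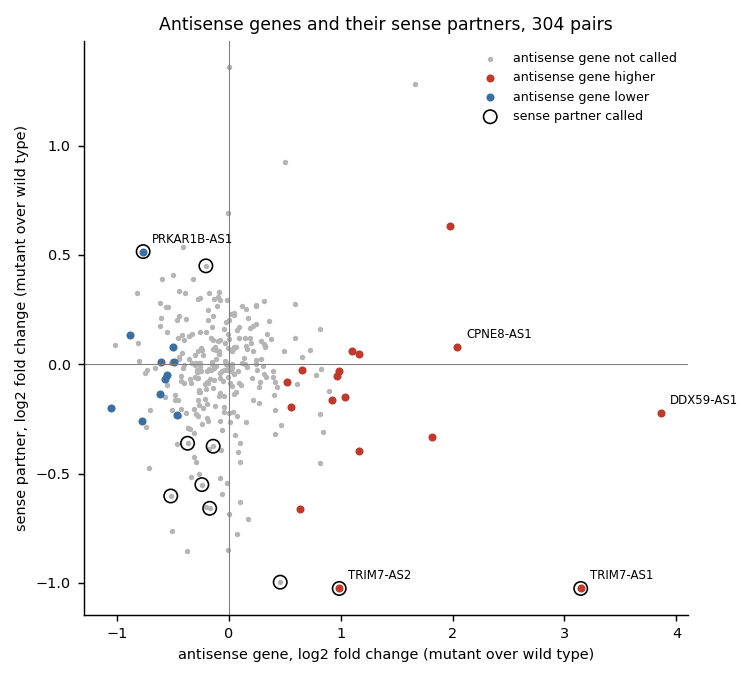
Log2 fold change (mutant over wild-type U1, across lines) of each antisense RNA gene on the x axis and of its sense partner on the y axis for 304 pairs; red and blue points are antisense genes called higher and lower, and rings mark called sense partners. Points spread along the x axis while most partners stay within 0.5 of 0; TRIM7-AS1, TRIM7-AS2 and PRKAR1B-AS1 are the called genes with a ringed partner.

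Within single lines, where the spread is technical, edgeR called 75 of the 332 genes in JVM3 (36 higher, 39 lower, 22.6%, against 22.4% of all genes tested, 10.4% of them higher), 138 in HG3 (70 higher, 68 lower, 41.6%, against 38.3%) and 140 in MEC1 (58 higher, 82 lower, 42.2%, against 36.6%). In all 3 lines 21 were higher (6.33%, against 4.34% of all genes tested) and 20 lower (6.02%, against 4.65%). In a pair of lines 12 were called in opposite directions (3.61%, against 5.39%), and 128 were called in none (38.6%, against 43.3%). The response differed between lines in 78 genes (23.5%, against 32.0% of all genes tested), 11 of them among the 29 called across lines.

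Some genes that the fit across lines did not call had a large change in 1 line. RUNDC3A-AS1 stood at 2.22 and 2.25 CPM in HG3 mutant libraries, against 0 and 0.133 CPM in HG3 wild-type libraries, a log2 fold change of 5.12 there, beside 1.18 in JVM3 and 0.59 in MEC1. LHFPL3-AS2 stood at 0.526 and 0.754 CPM in MEC1 mutant libraries, against 0.0575 and 0 CPM in MEC1 wild-type libraries (4.12), while JVM3 had -0.14 and HG3, where it was at 17.99 and 17.1 CPM in mutant and 21.9 and 21.8 CPM in wild-type libraries, had -0.31. DYNLRB2-AS1 was at 0.895 and 1.25 CPM in mutant and 0.115 and 0.234 CPM in wild-type MEC1 libraries (2.55), beside 0.07 in JVM3 and 0.34 in HG3. In RUNDC3A-AS1 and LHFPL3-AS2 the low state rested on libraries at or near 0, so the size of the fold depends on few counts.

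TAPT1-AS1 was higher in JVM3, at 5.50 and 5.82 CPM with mutant and 2.5 and 2.43 CPM with wild-type U1, and at 12.3 and 11.7 CPM in mutant and 4.75 and 5.28 CPM in wild-type HG3 libraries. In MEC1 it was at 18.3 and 22.9 CPM in mutant and 17.9 and 17.97 CPM in wild-type libraries. The log2 fold changes were 1.23 in JVM3, 1.27 in HG3 and 0.13 in MEC1. CLLU1-AS1, at a locus named for high expression in chronic lymphocytic leukaemia, was higher in JVM3, at 1.18 and 1.26 CPM with mutant and 0.299 and 0.335 CPM with wild-type U1, and at 1.16 and 1.74 CPM in mutant and 0.431 and 0.435 CPM in wild-type MEC1 libraries. In HG3 it went the other way, at 5.95 and 5.79 CPM in mutant and 7.42 and 8.67 CPM in wild-type libraries. OSTN-AS1 was lower in HG3, at 13.6 and 12.7 CPM in mutant and 22.6 and 23.3 CPM in wild-type libraries, and higher in MEC1, at 3.11 and 3.48 CPM in mutant and 2.16 and 2.11 CPM in wild-type libraries. CDC42EP3-AS1 was higher in HG3, at 8.16 and 8.34 CPM in mutant and 4.22 and 5.02 CPM in wild-type libraries, and lower in JVM3, at 14.8 and 16.97 CPM in mutant and 21.9 and 19.6 CPM in wild-type libraries.

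Splice site use was read as the share of junction reads at a shared acceptor, in a table with 1 column per line and U1 status. Of 309 junctions tested in 77 antisense RNA genes, 4 were used more and 3 less in mutant cells (1.29% and 0.971%), against 2.0% more and 0.784% less of the 35863 junctions tested in the whole table. Calls needed an adjusted p under 0.05 by edgeR's diffSpliceDGE, a mean change of at least 5 percentage points and the same sign in 3 lines. The 7 lay in MAPKAPK5-AS1, THUMPD3-AS1, PSMA3-AS1 and ZNF433-AS1, of which MAPKAPK5-AS1 alone was also called on its gene level.

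The donors of called junctions whose letters could be read are shown, since mutant U1 differs at the base that faces the sixth base of the intron. Each has 10 exonic bases followed by 8 intronic bases, 5′ to 3′ on the transcribed strand, with the sixth intron base in capitals. They were read from GENCODE 29 transcripts (GRCh38) that run through the site, and are named by the hg19 position of the last exonic base. Added are the 2 pairs of donors at a shared acceptor, in EML2-AS1 and THUMPD3-AS1, in which both sites could be read and the shares moved at least 5 points in opposite directions with the same sign in every line. Neither pair was called, and the THUMPD3-AS1 pair was not tested because its minor junction had 12 reads.
MAPKAPK5-AS1, chromosome 12, 112279488, used more: gcgtcgtgaggtatgGat
THUMPD3-AS1, chromosome 3, 9437190, used more: tggatctgaggttagGca
PSMA3-AS1, chromosome 14, 58755436, used more: aaagccactggttggTaa
EML2-AS1, chromosome 19, 46145024, higher share in mutant, not called: gagcacacaggtgggGgc
EML2-AS1, chromosome 19, 46145330, lower share in mutant, not called: acagaagagggtgagTat
THUMPD3-AS1, chromosome 3, 9431974, higher share in mutant, not tested: gtgtcattaggtaggTtt
THUMPD3-AS1, chromosome 3, 9431964, lower share in mutant, not tested: gtaggtttaggtatgCat
At the called donors the sixth base was G in MAPKAPK5-AS1 and THUMPD3-AS1 and T in PSMA3-AS1. In the pairs, the donor with the higher share in mutant columns had G in EML2-AS1 and T in THUMPD3-AS1, and the other donor had T in EML2-AS1 and C in THUMPD3-AS1. Over the 91 donors of antisense RNA genes that could be read it was T in 40, A in 18, C in 17 and G in 16. Among 12 donors of junctions whose share was on average at least 5 points higher in mutant columns it was G in 5, C in 3, T in 3 and A in 1, and in 9 every line had one sign (G in 4, C in 2, T in 2 and A in 1). Among 10 whose share was at least 5 points lower it was T in 6, G in 2, C in 1 and A in 1, and in 5 every line had one sign (T in 3, C in 1 and G in 1). These counts are a description, with no test.

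In MAPKAPK5-AS1, the junction from 112278281 to 112279488 on the minus strand of chromosome 12 (hg19; each junction runs from the last base of one exon to the first base of the next) starts at the donor shown first. It took 118 of 215 acceptor reads in mutant JVM3 (54.9%, 95% Wilson interval 48.2 to 61.4), 121 of 168 in mutant HG3 (72.0%, 64.8 to 78.3) and 209 of 329 in mutant MEC1 (63.5%, 58.2 to 68.5). In wild-type columns it took 35 of 155 in JVM3 (22.6%, 16.7 to 29.8), 20 of 86 in HG3 (23.3%, 15.6 to 33.2) and 19 of 126 in MEC1 (15.1%, 9.87 to 22.4). Mutant and wild-type columns did not overlap. The mean was 63.5% ± 8.57 in mutant and 20.3% ± 4.54 in wild-type cells (SD, n = 3 lines, adjusted p = 9.17e-05 by edgeR). The competing annotated junction from 112278281 to 112279131 averaged 34.5% ± 7.34 in mutant and 78.1% ± 4.50 in wild-type cells (adjusted p = 0.000719 by edgeR, 0.0592 without HG3). A further junction from 112277807 to 112279131, which is not annotated, averaged 10.2% ± 8.08 in mutant and 38.3% ± 8.92 in wild-type cells (adjusted p = 0.000333 by edgeR). Both junctions used less share the donor at 112279131.

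In THUMPD3-AS1, the junction from 9433510 to 9437190 on the minus strand of chromosome 3 took 64 of 115 acceptor reads in mutant JVM3 (55.7%, 46.5 to 64.4), 66 of 102 in mutant HG3 (64.7%, 55.1 to 73.3) and 189 of 282 in mutant MEC1 (67.0%, 61.3 to 72.2). In wild-type columns it took 25 of 96 in JVM3 (26.0%, 18.3 to 35.6), 23 of 86 in HG3 (26.7%, 18.5 to 36.9) and 29 of 127 in MEC1 (22.8%, 16.4 to 30.9). Mutant columns lay above wild-type columns in every line, with a mean of 62.5% ± 6.01 in mutant and 25.2% ± 2.08 in wild-type cells (SD, n = 3 lines, adjusted p = 0.00137 by edgeR). The competing junction from 9433510 to 9439108 averaged 34.9% ± 7.69 in mutant and 67.3% ± 4.38 in wild-type cells (adjusted p = 0.0117 by edgeR, 0.0797 without HG3 and 0.0834 without MEC1). The gene count of THUMPD3-AS1 was not called (log2 fold change 0.12, SE 0.06, adjusted p = 0.446 by edgeR).

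In ZNF433-AS1, an unannotated junction from 12112071 to 12112589 on the plus strand of chromosome 19 took 18.7%, 29.2% and 34.5% of acceptor reads in mutant and 8.11%, 3.64% and 3.0% in wild-type JVM3, HG3 and MEC1. It averaged 27.5% ± 8.07 in mutant and 4.92% ± 2.78 in wild-type cells (SD, n = 3 lines, adjusted p = 0.000369 by edgeR). In PSMA3-AS1, the junction from 58752474 to 58755436 on the minus strand of chromosome 14 took 13.5%, 34.7% and 15.6% in mutant and 6.06%, 8.2% and 0.0% in wild-type JVM3, HG3 and MEC1. It averaged 21.2% ± 11.7 in mutant and 4.75% ± 4.25 in wild-type cells on 47 reads in all (adjusted p = 0.0376 by edgeR). The PSMA3-AS1 call was lost without MEC1 (adjusted p = 0.201 by edgeR), and too few reads were left to test it without HG3. IQCH-AS1, which rose, had a junction on chromosome 15 (67811440 to 67813117) at 36.0%, 48.5% and 32.2% in mutant and 18.2%, 22.0% and 14.0% in wild-type JVM3, HG3 and MEC1, which did not pass (adjusted p = 0.0913 by edgeR). In EML2-AS1, the donor at 46145024 had 64.7%, 60.0% and 67.3% in mutant and 37.5%, 44.0% and 63.8% in wild-type JVM3, HG3 and MEC1, on 25 to 49 acceptor reads per column, with an adjusted p of 1 by edgeR.

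**Figure D5:**
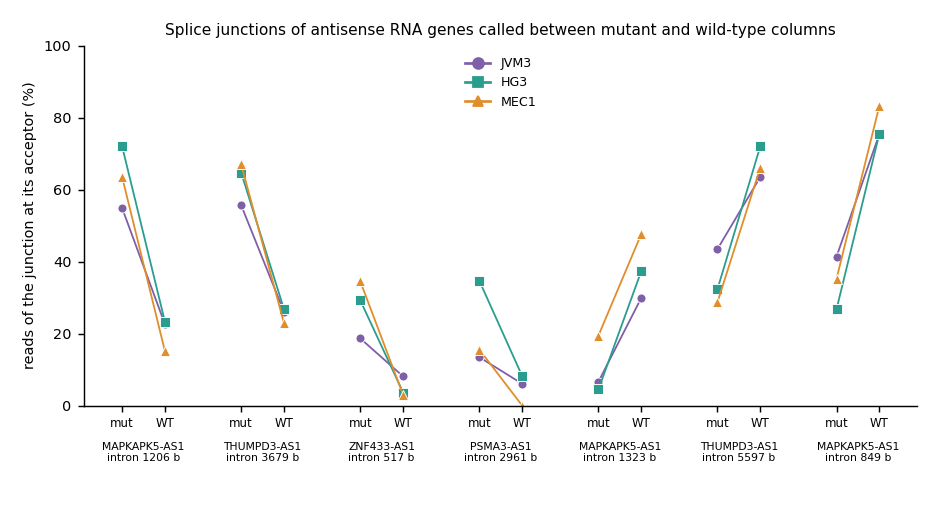
Share of acceptor reads (%) of the 7 called junctions of antisense RNA genes in mutant (left of each pair) and wild-type columns, joined by line (circles JVM3, squares HG3, triangles MEC1); each pair is named by gene and intron length in bases. The 4 junctions on the left were used more and the 3 on the right less in mutant cells, in every line.

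Other noncoding RNA genes named by symbol pattern and at a mean of 1 CPM were counted in the same fit. Of 158 divergent transcripts (-DT), which start head to head with a coding gene, 6 rose and 0 fell by edgeR (3.80%, median log2 fold change -0.16), while 49 had an unadjusted p under 0.05 and DESeq2 called 11. Of 191 intergenic RNAs (LINC), 7 rose and 6 fell (6.81%, median -0.06), and of 23 small nucleolar RNA host genes (SNHG) 2 rose and 0 fell (8.70%, median 0.09). Of 13 intronic transcripts (-IT1) 0 were called by edgeR, with 1 at an unadjusted p under 0.05 and 0 called by DESeq2. Among the antisense RNA genes 8.74% were called, with a median of -0.08. Differences between these classes were not tested, and the share of all genes at an unadjusted p under 0.05 was not counted.

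Genes that act on antisense RNAs were also read in that fit, again with no share of all genes beside the counts by unadjusted p. None of 20 genes of the nuclear exosome and its adaptors was called by edgeR, with 3 at an unadjusted p under 0.05 and 3 called by DESeq2. The lowest p was that of EXOSC8, an exosome subunit, at 48.4 CPM in mutant and 60.4 CPM in wild-type cells (log2 fold change -0.35, adjusted p = 0.0552 by edgeR). Among 24 U1 proteins and factors of early transcript ends 0 were called by edgeR, 3 had an unadjusted p under 0.05 and DESeq2 called 1. The lowest p was that of CPSF4, a polyadenylation factor, at 60.3 CPM in mutant and 46.3 CPM in wild-type cells (log2 fold change 0.33, adjusted p = 0.0736 by edgeR). Among 19 genes that sense or edit double-stranded RNA, which sense and antisense RNA can form, 0 were called by edgeR, 4 had an unadjusted p under 0.05 and DESeq2 called 0, with a list median of -0.12. Within lines, where the spread is technical, some of them changed in opposite directions, in part of the lines or in the same direction by different amounts. In JVM3, HG3 and MEC1, the log2 fold changes of OASL were 0.31, -0.70 and -0.73, those of OAS3 were -0.15, -1.18 and -0.37, and those of OAS1 were 0.08, -0.57 and -0.67. The response differed between lines for OASL, OAS3 and OAS1 (adjusted p = 7.48e-16, 2.72e-18 and 3.09e-15 by edgeR).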

How the data were processed

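RNA was sequenced in 12 libraries, 3 lines by 2 U1 states with 2 technical replicates each, grouped by the labels. The gene table holds the authors' deposited gene-level read counts, not normalized, and the junction table holds raw junction read counts as deposited, in 6 columns taken as pooled replicates. Reads were processed with STAR 2.5.4b, HTSeq 0.9.1 and builds named hg19 and GRCh37, per the submitters' processing notes. The strand setting, the annotation release and the extraction of junctions were not given in the sources used here. Entries without a gene stayed out of library sizes: reads outside features took 17.7% to 24.9% of entries, ambiguous reads 0.897% to 1.06% and reads not aligned uniquely 29.0% to 34.9%. Symbols came from a gene name table, which matched 39538 of 57820 IDs.

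Levels are CPM over gene counts. Tests used edgeR 4.0.16 in R 4.3.3 (quasi-likelihood, robust, TMM, filterByExpr), with Benjamini-Hochberg adjustment over 21270 genes. Across lines, replicates were summed and the line was a block. SE is that of the 3 lines' log2 ratios. Within lines, the 12 libraries were fitted as 6 groups, and the difference in response between lines was an interaction test. DESeq2 1.42.0 was an alternative. Junctions were tied to genes by exact intron lengths and spacing in GENCODE 29 within 150000 bases, with at least 5 matches, and no coordinates were converted. Junctions with at least 20 reads in all were tested with diffSpliceDGE over the whole table. A description without a test had been planned for junctions, so this test was added after the data were seen. Replicates of a group differed by more than counting noise (mean chi-square per gene 2.14 to 4.80), so none was counted as a repeat deposit. Intervals cover counting error only, and reads without molecular identifiers are not independent molecules. The tests were tried on simulated counts first.

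Genes named were up to 12 called with the largest rise and up to 12 with the largest fall, the 10 of highest level, those next to the threshold, the 5 with the strongest difference between lines, the 5 largest changes within each line and a fixed list of known antisense RNAs. The other called genes and a few more were named after their values were seen. One called gene is counted in totals but not reported here by name. The genes, lists and rules were chosen with earlier results of these data known.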

Additional observations from a re-analysis of the deposited data

Results flagged for a closer look

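Of the antisense RNA genes named by rule, 23 had a response to mutant U1 that differed between the 3 lines by edgeR's interaction test, adjusted over all genes. Genes named after their values were seen are not in this count. The replicates are technical, so these adjusted p-values compare single cultures of each line.

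The strongest were OSTN-AS1 (adjusted p = 1.25e-09 by edgeR, log2 fold change 0.03 in JVM3, -0.80 in HG3 and 0.56 in MEC1), TAPT1-AS1 (3.09e-09), CLLU1-AS1 (6.56e-09, with 1.95 in JVM3, -0.44 in HG3 and 1.65 in MEC1), RUNDC3A-AS1 (1.87e-08) and CDC42EP3-AS1 (1.98e-08, with -0.36 in JVM3, 0.85 in HG3 and 0.21 in MEC1). LHFPL3-AS2 (2.11e-07), CCDC18-AS1 (9.15e-07, with -0.28 in JVM3, 0.10 in HG3 and -0.52 in MEC1) and DYNLRB2-AS1 (0.000149) followed, by edgeR's adjusted p.

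Among those of the 23 that were called across lines, the size but not the direction differed in DDX59-AS1 (adjusted p = 0.000139 by edgeR, with 5.78 in JVM3, 4.63 in HG3 and 2.88 in MEC1), TTC36-AS1 (0.000178), SLC16A4-AS1 (0.00159), PSMB8-AS1 (0.002), THAP9-AS1 (0.0214), NEUROG2-AS1 (0.0291) and NOP14-AS1 (0.0401).

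The rest were EPB41L4A-AS1 (adjusted p = 0.000867 by edgeR), MCM3AP-AS1 (0.00378, with 0.48 in HG3), PSMA3-AS1 (0.00563), CD27-AS1 (0.0115), AFAP1-AS1 (0.0173, with -2.36 in MEC1, at 0.0427 CPM in mutant and 0.234 CPM in wild-type cells), FGD5-AS1 (0.0293), TSPEAR-AS2 (0.0358) and THUMPD3-AS1 (0.0389).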

How the results depend on the processing

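Calls rest on 3 lines with technical replicates, and reads of overlapping genes depend on a strand setting that was not stated. Of 609 results of the 29 called genes under other settings, 528 kept the call, 81 lost it and 0 changed sign. Most of these settings kept all 3 lines, and many left out a single technical replicate. The total is therefore no measure of how calls hold without a line, where fewer genes were called. The call was kept under every setting by 5 genes, among them DDX59-AS1, TRIM7-AS1, CPNE8-AS1 and DTNB-AS1. DDX59-AS1 and TRIM7-AS1 met the 1 CPM rule only through their mutant libraries, which favours a rise. The causes of the shifts in counts were not tested.

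Counts across lines, given as higher, lower and sense partners, were 18, 11 and 9. DESeq2 called 21 lower and 20 partners, library totals alone 6 lower and 5 partners, and no filter on low counts 30, 30 and 31. Fitting all 12 libraries without summing, as if technical replicates were independent, gave 59, 83 and 116. Without a line the counts were 5, 2 and 3 (JVM3), 8, 3 and 1 (HG3), and 2 lower and 2 partners (MEC1). Over all samples and lines left out in turn, calls ranged from 5 to 19 higher, 2 to 17 lower and 1 to 15 partners, and the median log2 fold change from -0.11 to -0.07. The highest were 17 lower without HG3 mutant replicate 2, and 15 and 14 partners without HG3 mutant replicate 1 and MEC1 wild-type replicate 1. The median was -0.13 for genes at 1 CPM in the wild-type mean, and 7 genes were higher among those at 1 CPM in each library.

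Within lines, DESeq2 called 48 genes in JVM3 and 90 in HG3, and 47 as different between lines. Leaving out samples gave 49 to 77 in JVM3, with 49 without wild-type replicate 1, 102 to 142 in HG3, 101 to 139 in MEC1, and 62 to 77 different between lines. Junction calls ranged from 4 without HG3 to 8, an alternative added after the data were seen.

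With the replicate number as a replicate block, the unsummed fit called 56 higher, 75 lower and 110 partners. Within lines the fit with the block called 87 in JVM3, 148 in HG3, 154 in MEC1 and 87 as different between lines. Same-numbered samples correlated at 0.068 to 0.398 in their deviations from group means, over 0.1 in 14 of 15 pairs of groups. They may share a replicate effect. The labels name no shared batch and 1 pair missed 0.1, so the numbers were not taken as pairs.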
